A study of Homo sapiens with 20 samples.

Results

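The genes described here are 32 genes of sterol and fatty acid synthesis that sterol regulatory element-binding proteins (SREBPs) are known to control, or that control the SREBPs. They were chosen by symbol from a list, out of 55159 genes in the deposited tables, and each of the 32 was found once in each of the 3 tables. All 32 passed the filter on low counts in every table.

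The libraries came from HEL cells, a human erythroleukaemia cell line that carries the JAK2 V617F mutation, so every group shares that mutation and 1 cell line as source. The 20 libraries formed 10 groups of 2. In the first table, cells were given 1 µM BCI, an inhibitor of dual-specificity phosphatases such as DUSP6, or the solvent DMSO, each for 48 h or for 4 h. The columns of the later time are headed 24 h in the table and 48 h in the labels, and the labels were followed. In the second table, cells were given BI-D1870, which blocks the RSK kinases, at 10 µM with 1 µM BCI, BI-D1870 alone, or DMSO, all for 24 h. The third table held fedratinib-persistent cells (FedP), ruxolitinib-persistent cells (RuxP) and parental cells. The persistent cells had been kept for long in a JAK2 inhibitor. The sources used here do not say whether they were clones, or whether the inhibitor was present at harvest. Separate cultures for the 2 libraries of a group are stated nowhere in the sources used here. The p-values therefore cover no more than the variation of these libraries, which may be technical.

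Levels are CPM, counts scaled to a common library size after TMM normalization, and differences are log2 fold changes with standard errors (SE) from an edgeR quasi-likelihood model, with p-values adjusted over all genes of the table. A gene was called changed at an adjusted p under 0.05. The share of all genes whose groups do not overlap was not computed, so a lack of overlap only describes the values. The total count of a library lay between 63916850 and 84452743 for BCI and its DMSO, between 54141164 and 70128404 for BI-D1870 and its DMSO, and between 51799814 and 79755715 for persistent and parental cells. A count of 0 allows a level of up to 0.0351 to 0.0604 CPM, depending on the library, by counting error alone. RNA came from whole cultures, in which fewer cells of a kind and less RNA per cell cannot be told apart. The 8 markers of HEL cells were above 0 in every library and summed to 1893 to 5063 CPM. The highest single level of a lymphoid, epithelial or stromal marker was 7.88 CPM, for CD79A.

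SREBPs are transcription factors that are made as membrane proteins of the endoplasmic reticulum. When sterols are scarce, SCAP escorts them to the Golgi, where proteases release the active part, which turns on genes for sterol and fatty acid synthesis. When sterols are plentiful, INSIG proteins hold SCAP back. SREBF2 is best known for the sterol genes and SREBF1 for the fatty acid genes. Several of the targets, INSIG1 among them, are commonly read as gauges of SREBP activity.

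Per kilobase of exon, the members differed widely in level in the DMSO libraries of 4 h. FASN, the fatty acid synthase, had the highest level at 311 CPM per kilobase. ATP citrate lyase (ACLY) followed at 119 and stearoyl-CoA desaturase (SCD) at 115 CPM per kilobase. Squalene epoxidase (SQLE) was the highest of the sterol enzymes, at 88.7 CPM per kilobase. The lowest were INSIG2 at 2.09, HSD17B7 at 1.99 and CYP51A1 at 1.78 CPM per kilobase. In every group CYP51A1, the lanosterol demethylase, was the lowest of the 32. FASN was the highest in 9 of the 10 groups, and SCD was the highest in RuxP cells. CYP51A1 is uncertain, since 2943 bases of its exons overlap those of other genes on the same strand. FDPS has 8 named pseudogenes, CYP51A1 has 3, HSD17B7 has 2, and SCD and FADS2 have 1 each, and reads may be shared with them.

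The 32 genes fell or rose with treatment, time and persistence in different ways. The direction of their changes was mainly down with BCI at 4 h, with time in culture and with BI-D1870. In FedP cells 30 of the 32 values were above 0 against parental cells, and in RuxP cells 17 were. Their share of calls against all genes is shown in the plot of shares, and each gene's values are shown in the map of log2 fold changes. Every member was called in at least 1 comparison, but the share of all genes called at least once was not computed. In a single comparison up to 47.1% of all genes were called, and several comparisons share libraries. MSMO1 was called in 6 of the 10 comparisons, ACAT2 and DHCR7 in 5 each, and SCAP, ACACA and FADS2 in 1 each.

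**Figure D1:**
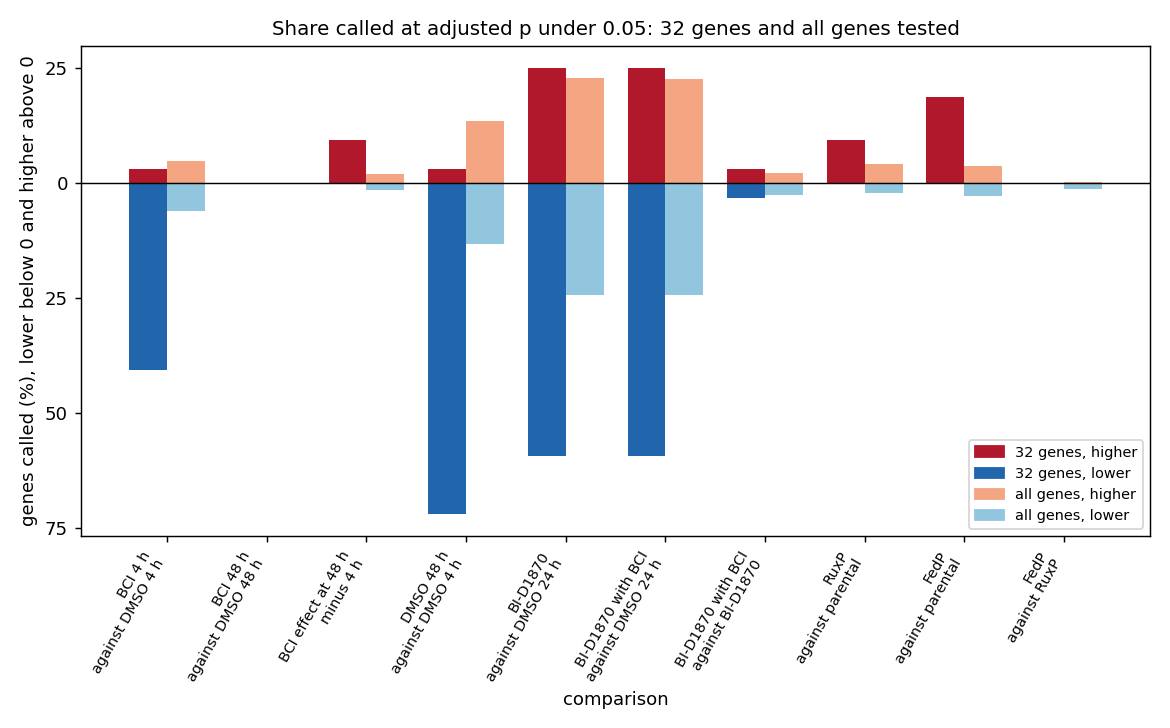
The bars give the percentage of genes called at an adjusted p under 0.05 in each of the 10 comparisons (x axis), above 0 for genes called higher and below 0 for genes called lower. Dark bars are the 32 sterol and fatty acid synthesis genes and pale bars are all genes tested. The longest dark bars below 0 belong to DMSO at 48 h against 4 h (23 of 32 genes lower) and to both comparisons of BI-D1870 with DMSO (19 of 32 lower in each).

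**Figure D2:**
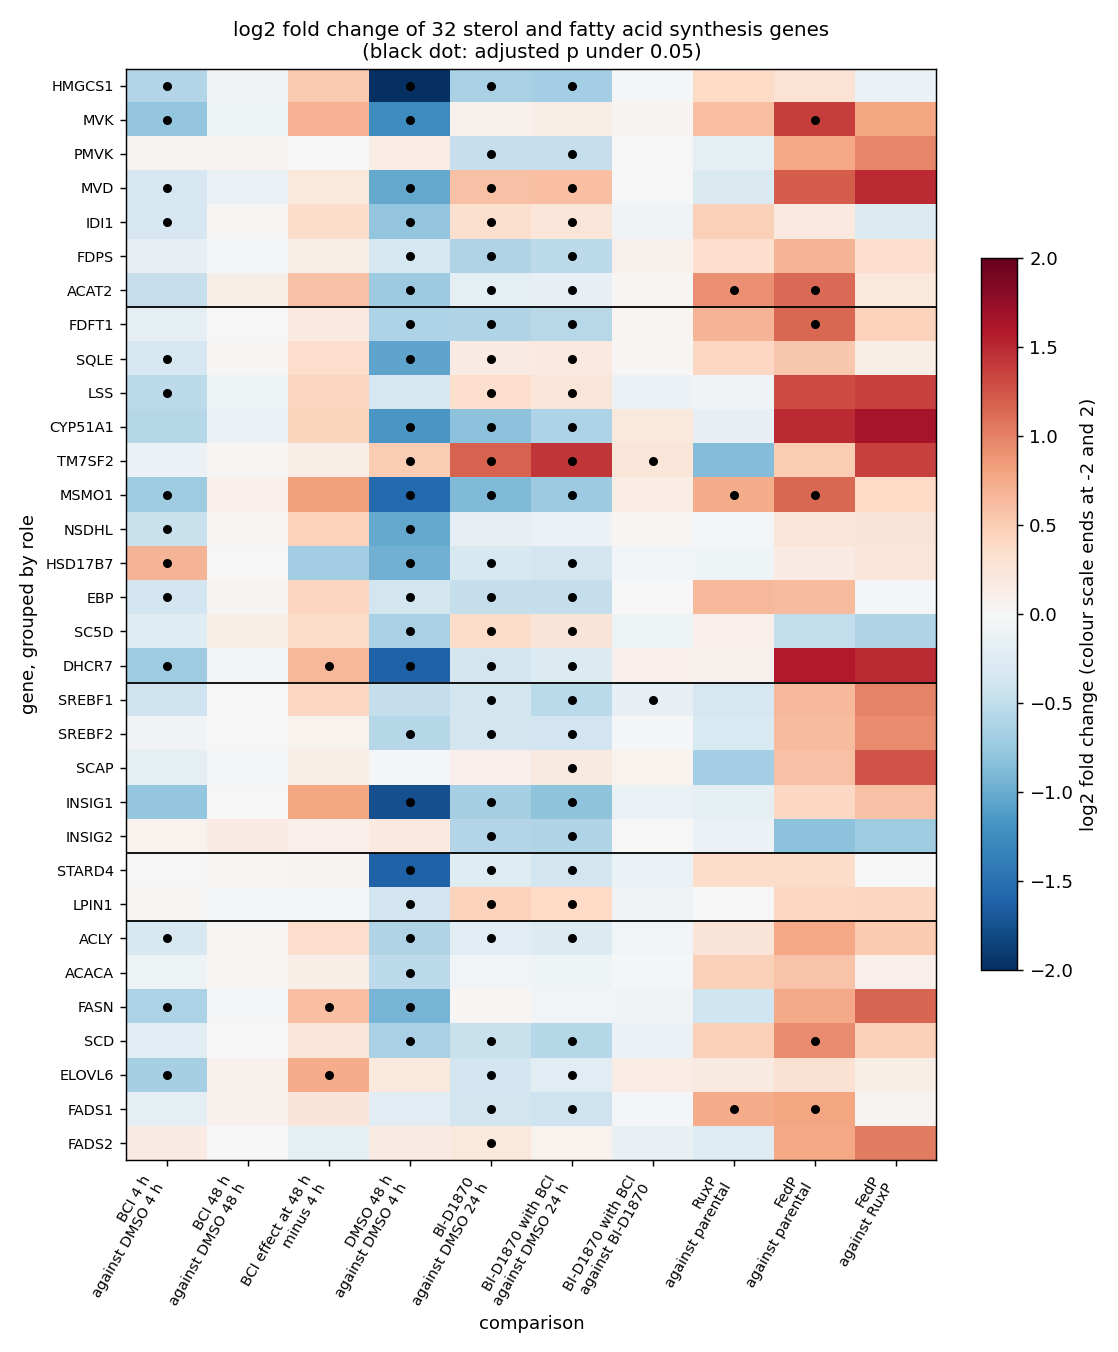
Colours give the log2 fold change of each of the 32 genes (rows, grouped by role from mevalonate steps to fatty acid synthesis) in each of the 10 comparisons (columns), with red for higher and blue for lower in the first-named group. Black dots mark an adjusted p under 0.05. The column of DMSO at 48 h against 4 h is the bluest, with HMGCS1 at -2.07, and TM7SF2 is red in it and in both comparisons of BI-D1870 with DMSO.

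Cells kept for 48 h in DMSO had lower levels of most of the 32 genes than cells kept for 4 h in DMSO. This comparison holds no inhibitor and differs only in the time after the solvent was added, as far as the labels say. Of the 32 genes, 23 were lower and 1 was higher at 48 h, where 13.2% of all 21908 genes tested were lower and 13.5% were higher, 26.6% in either direction. The median log2 fold change of the 32 genes was -0.63, and that of all genes was 0.04. The fall took in 6 of 7 mevalonate genes, 9 of 11 genes of the squalene and sterol steps, 2 of 5 SREBP factors and regulators, and 4 of 7 fatty acid genes.

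HMGCS1, the HMG-CoA synthase, an early enzyme of the mevalonate pathway, fell most. It had 41.8 and 29.6 CPM in the DMSO libraries of 48 h, against 152 and 148 CPM in those of 4 h. Its log2 fold change was -2.07 (SE 0.14, edgeR adjusted p 5.3e-05). The level at 48 h was below that at 4 h in both libraries, with no overlap. INSIG1, which retains SCAP when sterols are plentiful and is itself an SREBP target, had 54.0 and 31.0 CPM at 48 h, against 145 and 143 CPM at 4 h. Its log2 fold change was -1.76 (SE 0.22, edgeR adjusted p 0.00076). DHCR7, a late reductase of cholesterol synthesis, had 64.3 and 53.1 CPM at 48 h, against 181 and 179 CPM at 4 h, a log2 fold change of -1.62 (SE 0.10, edgeR adjusted p 4.1e-05).

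STARD4, a carrier that moves sterol between membranes, had 13.7 and 9.51 CPM at 48 h, against 36.4 and 34.6 CPM at 4 h, a log2 fold change of -1.61 (SE 0.17). MSMO1, the methylsterol monooxygenase, had 15.6 and 11 CPM at 48 h, against 39.9 and 38.1 CPM at 4 h, a log2 fold change of -1.55 (SE 0.16). Both were called by edgeR, with adjusted p of 0.00033 for STARD4 and 0.00032 for MSMO1. In all 5 of these genes the first library of 48 h was higher than the second, and the gap was widest for INSIG1. MVK, NSDHL, SQLE, MVD and CYP51A1 also fell by more than 1 log2 unit, with log2 fold changes of -1.26 for mevalonate kinase MVK, -1.03 for the sterol dehydrogenase NSDHL, -1.06 for SQLE, -1.02 for the mevalonate diphosphate decarboxylase MVD and -1.16 for CYP51A1.

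Of the fatty acid genes, FASN had the largest fall. It had 1654 and 1411 CPM at 48 h, against 2883 and 2940 CPM at 4 h, a log2 fold change of -0.93 (SE 0.09, edgeR adjusted p 0.00023). SCD, ACLY and the acetyl-CoA carboxylase ACACA fell with log2 fold changes of -0.64, -0.60 and -0.53. The fatty acid elongase ELOVL6 (0.21) and the desaturases FADS2 (0.17) and FADS1 (-0.23) were not called, with edgeR adjusted p of 0.16, 0.12 and 0.33. SREBF2 itself fell, with 361 and 324 CPM at 48 h against 506 and 507 CPM at 4 h, a log2 fold change of -0.56 (SE 0.08, edgeR adjusted p 0.001). SREBF1 had 225 and 155 CPM at 48 h against 260 and 267 CPM at 4 h, and was not called (log2 fold change -0.47, edgeR adjusted p 0.066).

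TM7SF2, a sterol reductase, was the 1 member that rose with time in culture. It had 30.2 and 33.9 CPM at 48 h, against 21.6 and 23.6 CPM at 4 h, a log2 fold change of 0.50 (SE 0.12, edgeR adjusted p 0.012). This call was lost without either DMSO library of 4 h, with edgeR adjusted p of up to 0.12. The 8 members that were not called were PMVK, LSS, SREBF1, SCAP, INSIG2, ELOVL6, FADS1 and FADS2. Leaving out each of the 4 libraries in turn left the median log2 fold change of the 32 between -0.75 and -0.51. Some of the calls depended on a single library. The HEL markers summed to 4318 and 4446 CPM in DMSO at 48 h, against 4910 and 5063 CPM in DMSO at 4 h, and the lymphoid markers to 5.80 and 6.15 CPM at 48 h, against 7.15 and 8.06 CPM at 4 h. Of the 8 HEL markers, 1 was called higher at 48 h and 7 were not called, and of 2 lymphoid markers tested 1 was called lower. The part of these markers in the result was not tested.

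Promoter letters are given for the 5 genes with the largest falls from this comparison, for TM7SF2, which rose, and for SREBF2, whose window was the 1 that held the searched SREBP motif. They are from the RefSeq promoter table of build GRCh38.p14, where 28 of the 32 members were matched, with 40 windows from 250 bases before to 50 after a start. ACAT2, FASN, FDFT1 and SQLE were not among them. Capitals mark CCAAT or its reverse complement ATTGG, and in SREBF2 also the SREBP motif. Each line is 5′ to 3′ on the strand of the gene and ends before the start of transcription.
HMGCS1, chr5:43313488-43313587, minus strand: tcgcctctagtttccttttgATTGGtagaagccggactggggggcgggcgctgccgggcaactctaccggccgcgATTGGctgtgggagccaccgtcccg
INSIG1, chr7:155297688-155297732, plus strand: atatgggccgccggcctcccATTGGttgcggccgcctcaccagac
DHCR7, chr11:71448417-71448507, minus strand: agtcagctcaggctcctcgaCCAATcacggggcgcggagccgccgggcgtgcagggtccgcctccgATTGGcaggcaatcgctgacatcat
STARD4, chr5:111512641-111512716, minus strand: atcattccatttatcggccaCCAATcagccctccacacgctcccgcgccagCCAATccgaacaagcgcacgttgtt
MSMO1, chr4:165327464-165327659, plus strand: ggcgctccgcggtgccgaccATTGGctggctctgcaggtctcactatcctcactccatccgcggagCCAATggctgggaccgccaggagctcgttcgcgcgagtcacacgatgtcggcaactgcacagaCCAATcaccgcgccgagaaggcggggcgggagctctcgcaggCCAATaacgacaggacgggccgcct
TM7SF2, chr11:65111778-65111822, plus strand: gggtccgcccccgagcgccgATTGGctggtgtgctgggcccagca
SREBF2, chr22:41832952-41833023, plus strand: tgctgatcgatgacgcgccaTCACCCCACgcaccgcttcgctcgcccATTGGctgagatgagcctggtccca

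CCAAT, the letters that the factor NF-Y is known to bind and that often stand near SREBP sites, was searched on both strands. It stood in 24 of the 40 windows of the members (60%), and in 34.6% of the 35116 windows of all genes in the table. The printed stretches hold 4 CCAAT matches in MSMO1, 2 each in HMGCS1, DHCR7 and STARD4, and 1 each in INSIG1, TM7SF2 and SREBF2. TM7SF2, which rose, holds the letters as well as the genes that fell. The SREBP motif TCACNCCAC stood in 1 of the 40 windows (2.5%), that of SREBF2, and in 1.13% of all windows. The GC box GGGCGG, which SP1 is known to bind, stood in 87.5% of the members' windows and in 45% of all windows. Each motif was counted on its own, also where matches of different motifs overlap, and members with several windows were counted once for each window. A match describes letters and is not a shown site. Sites with other letters or outside the windows were not searched, so a window without a match does not show that a site is absent.

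BCI for 4 h lowered part of the pathway, from HMGCS1 to the late sterol enzyme DHCR7, together with FASN and ELOVL6. Of the 32 genes, 13 were lower and 1 was higher in BCI than in DMSO, where 5.94% of all genes tested were lower and 4.8% were higher, 10.7% in either direction. The median log2 fold change of the 32 was -0.32, and that of all genes was 0.02. The genes called lower were 4 of 7 mevalonate genes, 6 of 11 genes of the squalene and sterol steps and 3 of 7 fatty acid genes, and none of the 5 SREBP factors and regulators.

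DHCR7 had 113 and 107 CPM in BCI at 4 h, against 181 and 179 CPM in DMSO at 4 h, a log2 fold change of -0.71 (SE 0.10, edgeR adjusted p 0.0018). FASN had 1935 and 1809 CPM in BCI, against 2883 and 2940 CPM in DMSO, a log2 fold change of -0.64 (SE 0.09, edgeR adjusted p 0.0021). The BCI libraries were below the DMSO libraries in both genes, and only these 2 calls held under every alternative setting that was run. MVK had 17.5 and 16.3 CPM in BCI, against 27.0 and 31.1 CPM in DMSO, a log2 fold change of -0.78 (SE 0.12, edgeR adjusted p 0.0029). ELOVL6 had 33.3 and 35.5 CPM in BCI, against 55.6 and 53.2 CPM in DMSO, a log2 fold change of -0.66 (SE 0.10, edgeR adjusted p 0.0034). MSMO1 had 21.5 and 26.0 CPM in BCI, against 39.9 and 38.1 CPM in DMSO, a log2 fold change of -0.72 (SE 0.16, edgeR adjusted p 0.02).

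HMGCS1 had 97.7 and 102 CPM in BCI at 4 h, against 152 and 148 CPM in DMSO, a log2 fold change of -0.59 (SE 0.14, edgeR adjusted p 0.026). The lanosterol synthase LSS (-0.52), NSDHL (-0.45), the sterol isomerase EBP (-0.38), MVD (-0.34), SQLE (-0.34), the isoprenoid isomerase IDI1 (-0.33) and ACLY (-0.32) were also called lower, on the log2 scale. Their edgeR adjusted p ran from 0.028 for MVD to 0.0496 for IDI1. INSIG1 had 83.5 and 84.7 CPM in BCI, against 145 and 143 CPM in DMSO. Its log2 fold change of -0.78 (SE 0.22) was as large as that of MVK but missed the threshold (edgeR adjusted p 0.0532). HSD17B7, a sterol ketoreductase, was the 1 member called higher, with 14.7 and 15.8 CPM in BCI against 9.34 and 9.66 CPM in DMSO, a log2 fold change of 0.68 (SE 0.14, edgeR adjusted p 0.014). STARD4, SREBF2 and LPIN1 were not called, with log2 fold changes of -0.01, -0.08 and 0.02. Without any 1 of the 4 libraries of 4 h, most of these calls were lost. The median log2 fold change of the 32 then stayed between -0.32 and -0.26. A fit of the 4 libraries of 4 h alone called 25 members, but the share of all genes called was not computed for it.

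At 48 h no member was called between BCI and DMSO, and no gene of the table was called (0% of all genes). None of the 32 had an unadjusted p under 0.05 in the edgeR test, against 316 of all genes, and DESeq2 and limma-voom called none of the members. The members' log2 fold changes at 48 h ran from -0.13 to 0.17. HMGCS1 had 35.4 and 32.7 CPM in BCI at 48 h, against 41.8 and 29.6 CPM in DMSO at 48 h, and the groups overlapped. FASN had 1565 and 1437 CPM in BCI at 48 h, against 1654 and 1411 CPM in DMSO, again with overlap. DHCR7 had 56.8 and 56.7 CPM in BCI at 48 h, against 64.3 and 53.1 CPM in DMSO, between which the BCI libraries fell. In the second libraries of 48 h, both that of BCI and that of DMSO, INSIG1 stood lower than in the first ones, at 36.4 against 49.1 CPM in BCI and at 31.0 against 54.0 CPM in DMSO.

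The difference between the BCI effects at 48 h and at 4 h was tested in the same edgeR model. It was called for 3 members, all higher at 48 h, where 2.08% of all genes were called higher and 1.37% lower, 3.46% in either direction. These were ELOVL6 with a difference of 0.75 (SE 0.14, edgeR adjusted p 0.023), DHCR7 with 0.66 (SE 0.13, edgeR adjusted p 0.031) and FASN with 0.61 (SE 0.13, edgeR adjusted p 0.032), on the log2 scale. For the other 29 members the difference was not called. MSMO1, with 0.81 (SE 0.22, edgeR adjusted p 0.092), and MVK, with 0.70 (SE 0.16, edgeR adjusted p 0.054), missed the threshold. Each of the 3 calls was lost when any 1 of the 4 libraries of 4 h, or the first BCI library of 48 h, was left out. The call of DHCR7 was also lost without the second BCI library of 48 h.

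The BCI comparison at 4 h and the comparison of 48 h with 4 h in DMSO share the DMSO libraries of 4 h, so their values stand side by side here without a test of likeness. HMGCS1 had a log2 fold change of -0.59 with BCI and -2.07 with time, DHCR7 of -0.71 with BCI and -1.62 with time, and MVK of -0.78 with BCI and -1.26 with time. LSS and ELOVL6 were lower with BCI and not called with time. HSD17B7 was called in opposite directions, higher with BCI (0.68) and lower with time (-0.96). STARD4 stood at -0.01 with BCI and at -1.61 with time.

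**Figure D3:**
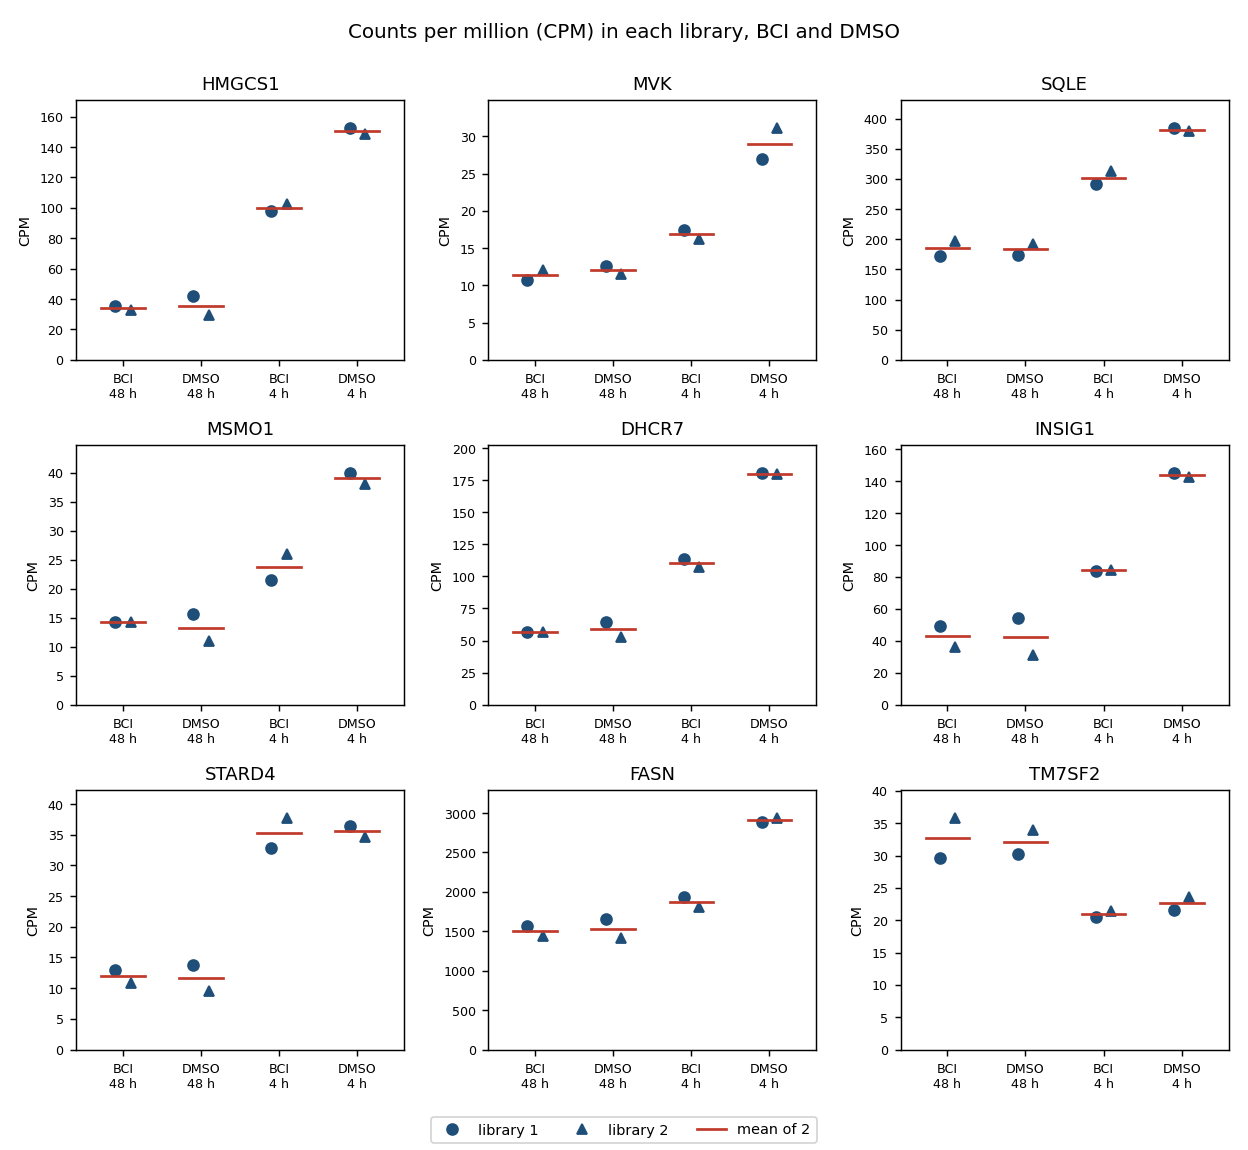
Points give the CPM (y axis, from 0) of 9 genes in each library of the first table, with circles for library 1, triangles for library 2 and red lines for the mean of the 2, in cells given BCI for 48 h, DMSO for 48 h, BCI for 4 h and DMSO for 4 h. The BCI libraries of 4 h lie below the DMSO libraries of 4 h in HMGCS1, MVK, SQLE, MSMO1, DHCR7, INSIG1, FASN and, narrowly, TM7SF2. The 4 libraries of 48 h lie lowest in HMGCS1, MVK, SQLE, MSMO1, DHCR7, INSIG1, STARD4 and FASN. TM7SF2 is highest at 48 h.

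Genes outside the 32 that belong to the same biology were also compared in this table, where 26.6% of all genes were called for time in DMSO and 10.7% for BCI at 4 h. The shares called with time ran from 20% of the uptake, transport and storage list, below that background, to 57.1% of the LXR list. The list of SREBP processing and turnover also had 57.1% called, with 2 of its 7 genes higher and 2 lower. Of 9 genes of the non-sterol isoprenoid branch, 3 fell in DMSO at 48 h against 4 h and none rose, with NUS1, a subunit of the enzyme that makes dolichol, at -0.81 (56.2 and 56.5 CPM at 48 h, against 102 and 95.7 CPM at 4 h). Of 7 LXR factors and targets, which respond to surplus sterol, 3 rose and 1 fell, with NR1H3, which encodes LXR alpha, at 0.97. Of 10 genes of sterol uptake, transport and storage, 2 rose, GRAMD1A, a sterol transfer protein, at 0.97 and the lysosomal NPC2 at 0.86. Of 12 further fatty acid genes tested, 4 fell, with the acyl-CoA synthetase ACSL3 at -0.62. ME1, the malic enzyme, did not pass the filter in any table. With BCI at 4 h, ELOVL5, a fatty acid elongase, rose by a log2 fold change of 0.66 (252 and 251 CPM in BCI, against 162 and 157 CPM in DMSO), and MYLIP, an LXR target that marks lipoprotein receptors for breakdown, fell with -0.48. KLF1, a marker of HEL cells and an erythroid transcription factor, fell with BCI at 4 h as well (-0.88, edgeR adjusted p 0.0028), and its part in the result was not tested. The other 7 HEL markers were not called, and the median log2 fold change of the 8 was -0.08.

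With BI-D1870 for 24 h, members were called in both directions. Of the 32 genes, 19 were lower and 8 were higher than in DMSO, where 24.3% of all 21328 genes tested were lower and 22.8% were higher, 47.1% in either direction. The members called higher were thus near the background share, and those called lower were above it. The median log2 fold change of the 32 was -0.28, and that of all genes was -0.01. Of these 27 calls, 24 held under every alternative setting that was run other than the rule of a 1.5-fold change, which left 9.

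Among the mevalonate genes, HMGCS1 had 60.5 and 55.9 CPM in BI-D1870, against 93.4 and 89.4 CPM in DMSO, a log2 fold change of -0.65 (SE 0.05, edgeR adjusted p 2.7e-09). FDPS, which makes farnesyl diphosphate, fell with -0.60, the phosphomevalonate kinase PMVK with -0.47 and the thiolase ACAT2 with -0.19. MVD rose, with 56.4 and 58.5 CPM in BI-D1870 against 37.9 and 38.2 CPM in DMSO, a log2 fold change of 0.59 (SE 0.05, edgeR adjusted p 1.6e-08). IDI1 rose with 0.31, and MVK was not called (0.08, edgeR adjusted p 0.36). Of the 7 mevalonate genes, 2 were thus higher and 4 lower. Calls in both directions were also the rule among all genes, of which 22.8% were higher and 24.3% lower.

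In the sterol steps, TM7SF2 rose most of the 32. It had 37.0 and 37.8 CPM in BI-D1870, against 16.5 and 16.4 CPM in DMSO, a log2 fold change of 1.18 (SE 0.06, edgeR adjusted p 1.2e-11). LSS, the sterol desaturase SC5D and SQLE rose by smaller log2 fold changes of 0.35, 0.36 and 0.17. MSMO1 fell most, with 21.7 and 19.8 CPM in BI-D1870 against 39.1 and 37.1 CPM in DMSO, a log2 fold change of -0.88 (SE 0.07, edgeR adjusted p 2.6e-09). FDFT1, the squalene synthase, had 156 and 157 CPM in BI-D1870, against 244 and 231 CPM in DMSO, a log2 fold change of -0.60 (SE 0.04, edgeR adjusted p 4.1e-10). CYP51A1 (-0.83), EBP (-0.48), DHCR7 (-0.37) and HSD17B7 (-0.31) fell too, and NSDHL was not called (-0.16).

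Of the SREBP factors and regulators, 4 of 5 were lower in BI-D1870. INSIG1 had 97.9 and 94.3 CPM in BI-D1870, against 166 and 139 CPM in DMSO, a log2 fold change of -0.67 (SE 0.06, edgeR adjusted p 1.6e-08). INSIG2, SREBF1 and SREBF2 fell with -0.59, -0.37 and -0.37, and SCAP was not called (0.10, edgeR adjusted p 0.056). LPIN1, a phosphatidate phosphatase, rose with 0.46, with 86.3 and 80.4 CPM in BI-D1870 against 60.6 and 60.6 CPM in DMSO. Of the fatty acid genes, SCD (-0.44), ELOVL6 (-0.38), FADS1 (-0.37) and ACLY (-0.22) fell and FADS2 (0.21) rose. FASN had 2074 and 2080 CPM in BI-D1870, against 2033 and 2060 CPM in DMSO, and was not called (log2 fold change 0.02, SE 0.04, edgeR adjusted p 0.67).

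Cells given BI-D1870 with BCI had values close to those of cells given BI-D1870 alone. Against DMSO, 19 members were lower and 8 were higher, where 24.3% of all genes were lower and 22.6% were higher, 46.8% in either direction. This comparison shares its DMSO libraries with that of BI-D1870 alone. MSMO1 had 22.7 and 23.4 CPM in the pair of inhibitors, against 39.1 and 37.1 CPM in DMSO, a log2 fold change of -0.72 (SE 0.07, edgeR adjusted p 2.8e-08). INSIG1 had 88.1 and 86.6 CPM in the pair, against 166 and 139 CPM in DMSO, a log2 fold change of -0.80 (SE 0.06, edgeR adjusted p 1e-09). SCAP was called higher in the pair (0.18, edgeR adjusted p 0.0016), and FADS2 was not called (0.07, edgeR adjusted p 0.2).

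Set directly against BI-D1870 alone, the pair of inhibitors differed in 2 members, 1 higher and 1 lower, where 2.22% of all genes were higher and 2.48% were lower, 4.71% in either direction. TM7SF2 had 45.4 and 43.1 CPM in the pair, against 37.0 and 37.8 CPM in BI-D1870 alone, a log2 fold change of 0.24 (SE 0.06, edgeR adjusted p 0.021). SREBF1 had 105 and 109 CPM in the pair, against 120 and 120 CPM in BI-D1870 alone, a log2 fold change of -0.16 (SE 0.05, edgeR adjusted p 0.046). The groups did not overlap in either gene, but the share of all genes without overlap was not computed. Neither call held under every alternative setting. The other 30 members were not called, and CYP51A1 had the largest log2 fold change among them, at 0.20 (SE 0.21). HMGCS1 stood at 56.3 and 57.6 CPM in the pair, against 60.5 and 55.9 CPM in BI-D1870 alone.

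**Figure D4:**
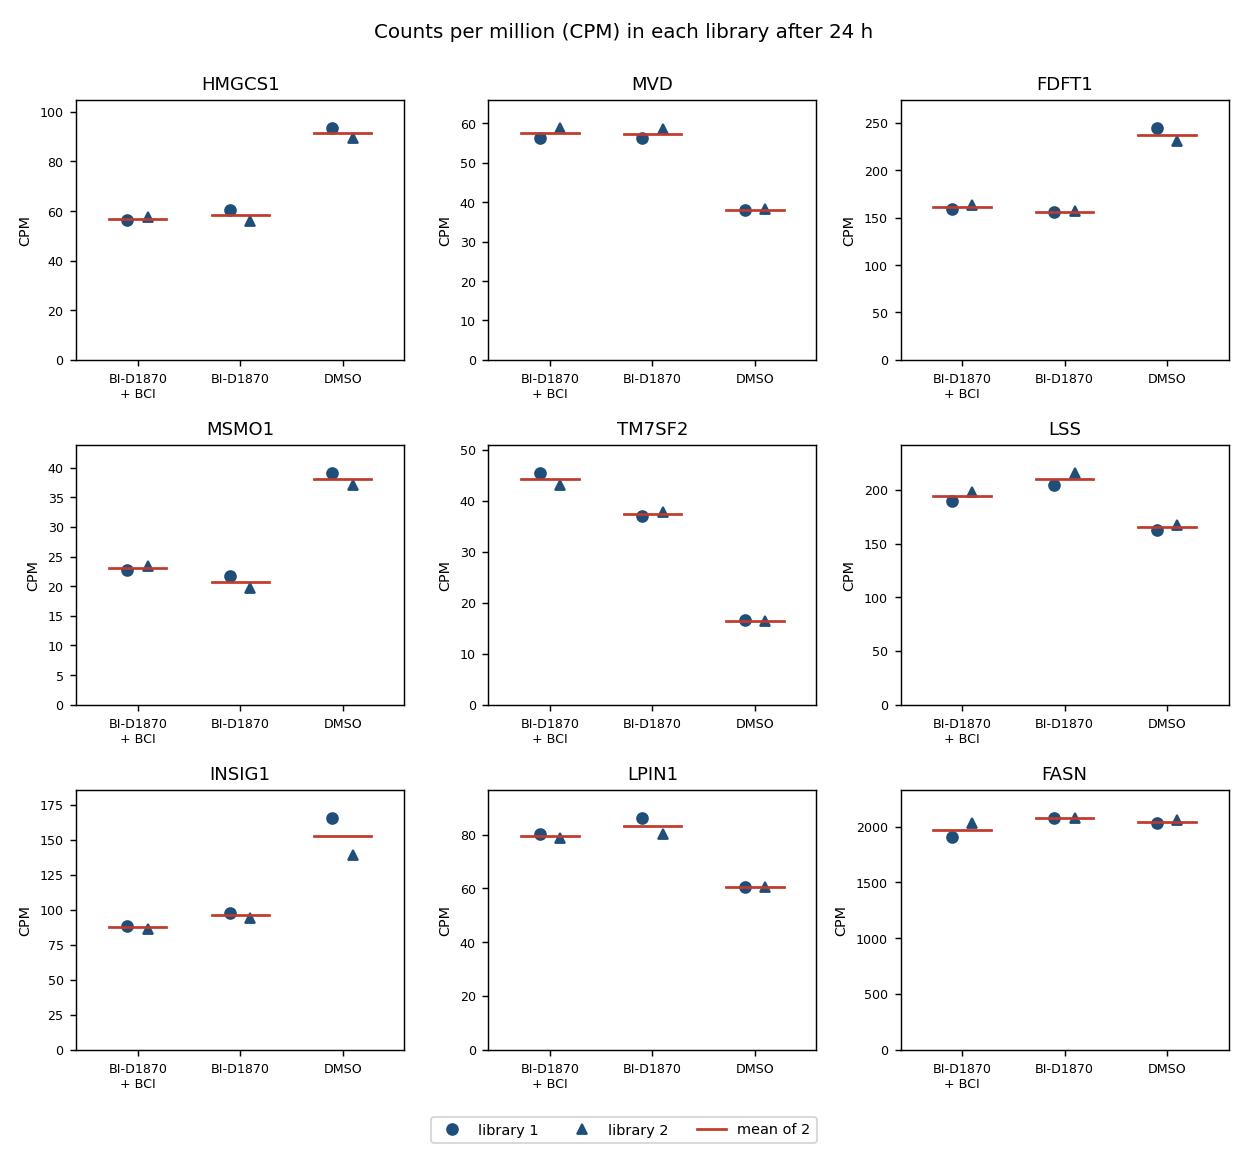
Points give the CPM (y axis, from 0) of 9 genes in each library of the second table, with circles for library 1, triangles for library 2 and red lines for the mean of the 2, in cells given BI-D1870 with BCI, BI-D1870 alone and DMSO for 24 h. HMGCS1, FDFT1, MSMO1 and INSIG1 lie below DMSO in both inhibitor groups, and MVD, TM7SF2, LSS and LPIN1 lie above it. FASN lies between 1910 and 2080 CPM in all 6 libraries.

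Related genes outside the 32 were also compared between BI-D1870 and DMSO. Since 47.1% of all genes were called, the shares of 55.6% of the isoprenoid branch and 57.1% of the LXR list are near that background, and those of the other 3 lists ran from 71.4 to 83.3%. Of 7 LXR factors and targets, 3 fell and 1 rose. ABCA1 and ABCG1, which export sterol, had log2 fold changes of -1.71 and -1.27, with ABCG1 at 33.0 and 27.5 CPM in BI-D1870 against 73.3 and 72.3 CPM in DMSO. Of 10 genes of sterol uptake, transport and storage, 6 rose and 2 fell, with NPC2 at 0.99 and the lysosomal sterol transporter NPC1 at 0.63. Of 7 genes of SREBP processing and turnover, 5 rose and none fell, with the ubiquitin ligase RNF145 at 0.46 and the ubiquitin-conjugating enzyme UBE2G2 at 0.41. Of 12 further fatty acid genes, 6 rose and 4 fell, with ACSL1 at 0.99 and ACSL4 at -0.80, both acyl-CoA synthetases. Of 9 genes of the non-sterol isoprenoid branch, 3 rose and 2 fell, with the farnesyltransferase subunit FNTB at -0.99.

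HEL marker levels and the mitochondrially encoded share of counts moved with these groups. The 8 HEL markers summed to 3442 and 3786 CPM in the pair, to 4260 and 4363 CPM in BI-D1870 and to 5358 and 5508 CPM in DMSO, and 7 of 8 were lower in BI-D1870 while TAL1 was higher. The mitochondrially encoded genes held 5.28 to 5.72% of counts in the pair, 6.17 to 6.20% in BI-D1870 and 3.58 to 3.64% in DMSO. The 5 lymphoid markers summed to 2.77 to 3.25 CPM in the pair, 2.14 to 2.45 CPM in BI-D1870 and 5.32 to 5.50 CPM in DMSO, nearly all of it CD79A, with CD3D and MS4A1 at 0 in all 6 libraries. The 5 epithelial and stromal markers summed to 2.37 and 3.15 CPM in the pair, 1.97 and 2.33 CPM in BI-D1870 and 8.29 and 7.29 CPM in DMSO. Of these, PDGFRB was called lower in both comparisons with DMSO (log2 fold change -1.87 in the pair and -2.06 in BI-D1870). The part of these shifts in the result was not tested.

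In the persistent cells, the calls against parental cells were few, 6 in FedP and 3 in RuxP, and all were higher. The spread was the widest of the 3 tables, with a biological coefficient of variation of 26.9%, against 13.3% in the first table and 5.01% in the second. By the median absolute log2 difference over all genes, the 2 parental libraries differed most (0.51), followed by the 2 RuxP libraries (0.34). By Pearson correlation the RuxP pair agreed least (0.9535, against 0.9599 for the parental pair). With 2 libraries a group it is not shown which of them is atypical. The members' median absolute log2 difference between the 2 libraries of a group was 0.0475 in FedP, 0.216 in RuxP and 0.501 in parental cells. FASN shows this, with 1352 and 1290 CPM in FedP, 470 and 710 CPM in RuxP and 1132 and 427 CPM in parental cells. The mitochondrially encoded share was 12.4 to 12.6% in FedP, 23.1 to 25.7% in RuxP, and 15.6% and 23.6% in the parental libraries, and its part in the results was not tested.

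FedP cells had higher levels than parental cells of 6 of the 32 genes and lower levels of none, where 3.84% of all 15924 genes tested were higher and 2.79% were lower, 6.63% in either direction. The median log2 fold change of the 32 was 0.65, against 0.01 for all genes, and 30 of the 32 values were above 0. MVK had 23.2 and 22.6 CPM in FedP, against 10.8 and 6.69 CPM in parental cells, a log2 fold change of 1.39 (SE 0.25, edgeR adjusted p 0.032). FDFT1 had 350 and 355 CPM in FedP, against 170 and 148 CPM in parental cells, a log2 fold change of 1.15 (SE 0.16, edgeR adjusted p 0.015). MSMO1 had 46.5 and 50.1 CPM in FedP, against 20.1 and 23.6 CPM in parental cells, a log2 fold change of 1.14 (SE 0.16, edgeR adjusted p 0.015). In each the FedP libraries lay above both parental libraries.

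ACAT2 had 22.7 and 23.8 CPM in FedP, against 11.7 and 9.65 CPM in parental cells, a log2 fold change of 1.13 (SE 0.17, edgeR adjusted p 0.019). ACAT2 is uncertain, since 2996 bases of its exons overlap genes on the other strand, TCP1 and SOD2 among them, and the strand setting of the counting is not given in the sources used here. SCD had 606 and 583 CPM in FedP, against 335 and 284 CPM in parental cells, a log2 fold change of 0.94 (SE 0.17, edgeR adjusted p 0.031). FADS1 had 176 and 178 CPM in FedP, against 106 and 100 CPM in parental cells, a log2 fold change of 0.78 (SE 0.14, edgeR adjusted p 0.031). DHCR7 had a larger value that was not called, with 148 and 146 CPM in FedP against 67.0 and 31.2 CPM in parental cells, a log2 fold change of 1.58 (SE 0.39, edgeR adjusted p 0.07). CYP51A1 (1.49), LSS (1.31) and MVD (1.21) were not called either, with edgeR adjusted p of 0.12, 0.071 and 0.069. SC5D (-0.49) and INSIG2 (-0.82) were the 2 members below 0, neither called.

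RuxP cells had higher levels than parental cells of 3 of the 32 genes and lower levels of none, where 4.28% of all genes were higher and 2.17% were lower, 6.44% in either direction. ACAT2 had 20 and 20.3 CPM in RuxP, against 11.7 and 9.65 CPM in parental cells, a log2 fold change of 0.92 (SE 0.17, edgeR adjusted p 0.033). MSMO1 had 37.0 and 36.4 CPM in RuxP, against 20.1 and 23.6 CPM in parental cells, a log2 fold change of 0.75 (SE 0.16, edgeR adjusted p 0.049). FADS1 had 166 and 177 CPM in RuxP, against 106 and 100 CPM in parental cells, a log2 fold change of 0.74 (SE 0.14, edgeR adjusted p 0.036). The median log2 fold change of the 32 was 0.10, and that of all genes was -0.04. FDFT1 and EBP had log2 fold changes of 0.69 and 0.65 and missed the threshold, with edgeR adjusted p of 0.06 and 0.065. TM7SF2 and SCAP had -0.87 and -0.68, with edgeR adjusted p of 0.27 and 0.41, and their groups overlapped.

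No member was called between FedP and RuxP cells, where 0.232% of all genes were higher and 1.16% were lower in FedP, 1.39% in either direction. In this edgeR test 19 members and 5103 of all genes had an unadjusted p under 0.05. The lowest adjusted p of a member in it was 0.075, for MVD. DESeq2 called 13 members and limma-voom called 1, but the share of all genes that they called was not computed. MVD had 58.6 and 55.5 CPM in FedP, against 16.5 and 23.8 CPM in RuxP, a log2 fold change of 1.5 (SE 0.30). DHCR7 had 148 and 146 CPM in FedP, against 40.7 and 64.0 CPM in RuxP, a log2 fold change of 1.49 (SE 0.39, edgeR adjusted p 0.097). The FedP libraries lay above the RuxP libraries in both genes, but the share of all genes without overlap was not computed. HMGCS1 had 86.2 and 88.9 CPM in FedP, against 106 and 83.6 CPM in RuxP, and the groups overlapped.

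The counts in this table rested on single libraries. Without the first parental library 26 members were called in FedP and 6 in RuxP against parental cells, and without the second parental library 7 were called in FedP and 13 in RuxP. Without either FedP library none was called in FedP against parental cells, and without either RuxP library none was called in RuxP. The share of all genes called was not computed for these fits, so the counts of members have no background beside them. The second parental and the first RuxP library had the highest mitochondrially encoded share, and leaving both out was a choice made after seeing the data. The members' median log2 fold change was then 0.53 in FedP and 0.18 in RuxP against parental cells, and 0.35 in FedP against RuxP cells. Each lone library is assumed there to vary like the FedP pair, the only pair left. The log2 fold changes of the 6 genes called in FedP ran from 0.75 for FADS1 to 1.26 for MSMO1 in that fit.

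**Figure D5:**
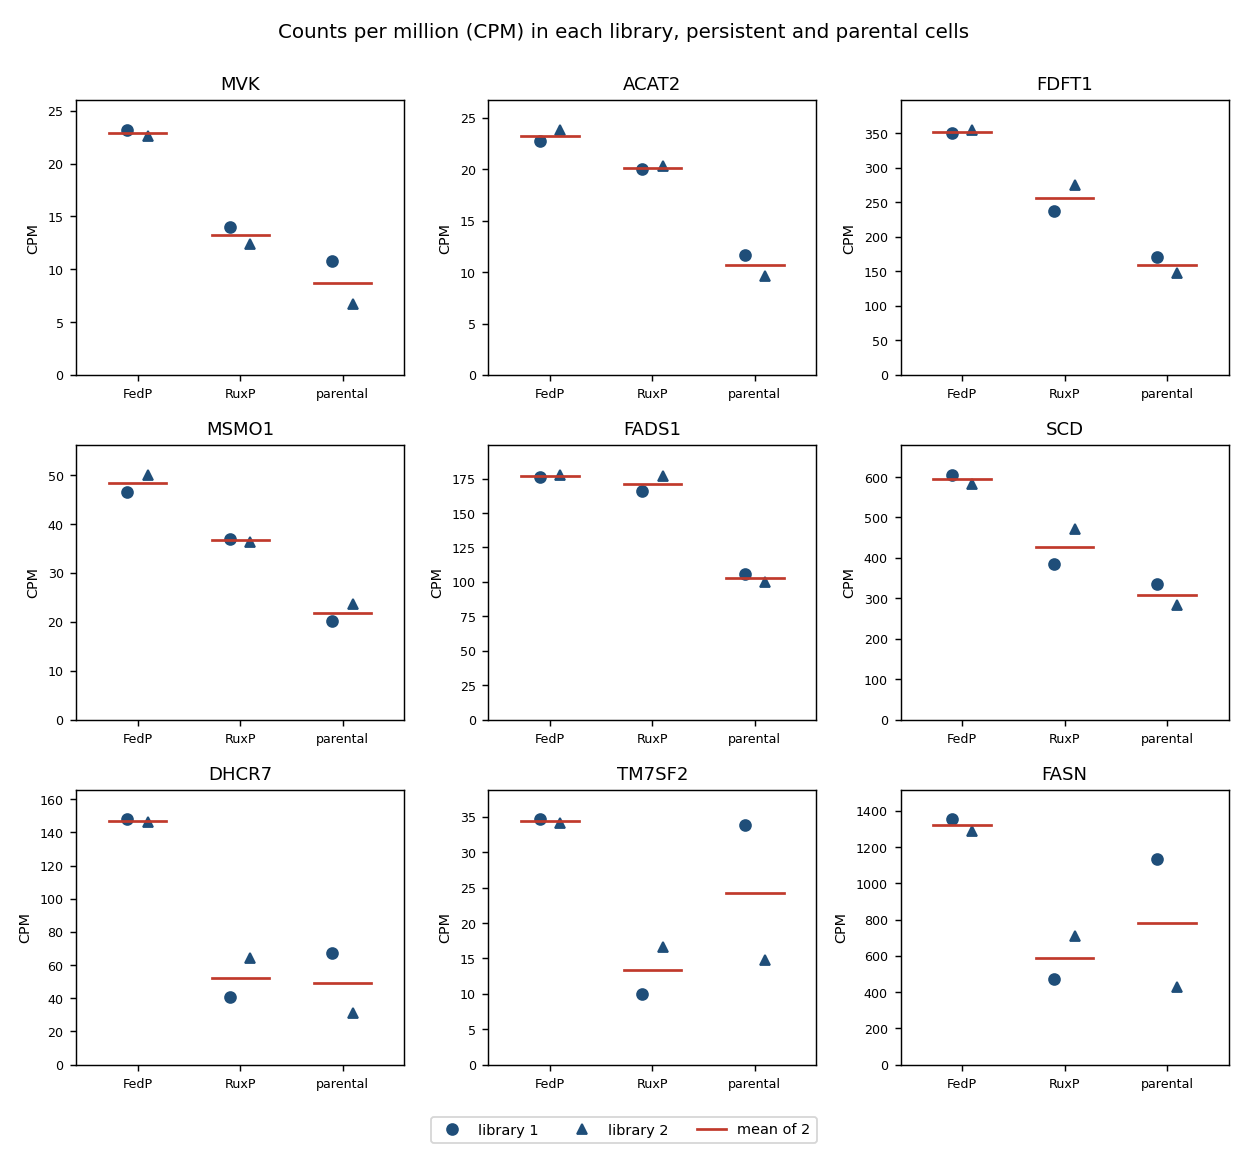
Points give the CPM (y axis, from 0) of 9 genes in each library of the third table, with circles for library 1, triangles for library 2 and red lines for the mean of the 2, in FedP, RuxP and parental cells. FedP libraries lie together and above both parental libraries in each of the 9 genes. The RuxP libraries lie above the parental ones in MVK, ACAT2, FDFT1, MSMO1, FADS1 and SCD, and the 2 parental libraries lie far apart in DHCR7, TM7SF2 and FASN.

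Related genes outside the 32 were compared with parental cells too, where 6.63% of all genes were called in FedP and 6.44% in RuxP. In lists of 7 to 12 genes, a single call is already more than that share. ACACB, the acetyl-CoA carboxylase of mitochondria, had the largest rise among them. It had 59.2 and 60.7 CPM in FedP, 35.5 and 48.3 CPM in RuxP, and 7.17 and 4.03 CPM in parental cells, with log2 fold changes of 3.42 in FedP (SE 0.33, edgeR adjusted p 0.0055) and 2.90 in RuxP (SE 0.32, edgeR adjusted p 0.0068) against parental cells. Of 7 LXR factors and targets, 2 rose in FedP against parental cells, ABCA1 with 2.28 and ABCG1 with 1.78, and none fell, while in RuxP NR1H3 fell with -1.22 and none rose. Of 10 genes of sterol uptake, transport and storage, 2 rose in RuxP, TMEM97 with 1.15 and SOAT1, which esterifies cholesterol, with 0.80, and none was called in FedP. None of the 9 genes of the non-sterol isoprenoid branch was called in either comparison. The 8 HEL markers summed to 3767 and 3872 CPM in FedP, 1893 and 2203 CPM in RuxP, and 4172 and 2688 CPM in parental cells. Against parental cells, 1 HEL marker was called higher and 2 were called lower in RuxP, and none was called in FedP. The 5 epithelial and stromal markers summed to 4.44 and 3.79 CPM in FedP, 2.21 and 1.93 CPM in RuxP, and 0.557 and 1.98 CPM in parental cells, with PDGFRB called higher in FedP (log2 fold change 3.36, edgeR adjusted p 0.046). The 5 lymphoid markers summed to 2.43 and 2.54 CPM in FedP, 0.262 and 1.08 CPM in RuxP, and 0.939 and 0.969 CPM in parental cells, with none called. The part of these markers in the results was not tested.

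The calls of some members are set side by side here over the whole series. Several comparisons share libraries, so the calls of a member are not separate events, and no such tally was made for all genes. TM7SF2 was called higher in 4 comparisons and lower in none, while HMGCS1, EBP and ACLY were called lower in 4 and higher in none. MSMO1 was called lower in 4 comparisons and higher in 2, both of them in persistent cells. PMVK was called only with BI-D1870, alone and with BCI, and SCAP only with the pair of inhibitors. ACACA was called only with time in culture. Several of these calls did not hold under every alternative setting, those of TM7SF2 with time and for the pair against BI-D1870 among them.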

How the data were processed

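RNA of HEL cells was prepared on columns with a DNase step and read on an Illumina NovaSeq instrument, per the labels' protocols. The authors deposited 3 tables of raw counts per gene, made with bcl2fastq, STAR 2.5.1a and edgeR on build GRCh38, per the submitters' processing notes. The strand setting of the counting is not given in the sources used here. Among counts of 1 to 20, 59.8 to 73.1% were even in each library, so a fragment may stand for 2 counts. Intervals and floors cover counting error only.

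Each table was fitted on its own in R 4.3.3 with edgeR 4.0.16: filterByExpr by group, TMM scaling, and a quasi-likelihood model over all groups of the table without a replicate term. The deposited counts were used as they are. The difference of the BCI effects was a contrast in the same model. P-values were adjusted by Benjamini-Hochberg over all genes tested, and SE is the size of the log2 fold change divided by the square root of the F statistic. CPM use the TMM-scaled library size. Limma 3.58.1 and DESeq2 1.42.0 gave alternatives. The script was tested on simulated data. The members and the lists of related genes were chosen with earlier results of these data known. All 32 members are reported, and of related lists up to 3 called genes per comparison with the largest log2 fold change, of which a few are not reported here. Gene overlaps and exon lengths are from GENCODE 29 on GRCh38, and promoter letters are from RefSeq on GRCh38.p14.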

Additional observations from a re-analysis of the deposited data

Results flagged for a closer look

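The effect of BCI against DMSO differed between 48 h and 4 h in 3 members by a test of the difference itself in edgeR. The log2 fold change at 48 h minus that at 4 h was 0.75 for ELOVL6 (adjusted p 0.023), 0.66 for DHCR7 (adjusted p 0.031) and 0.61 for FASN (adjusted p 0.032). At 4 h each of the 3 genes was lower in both BCI libraries than in both DMSO libraries. At 48 h DHCR7 and FASN overlapped between BCI and DMSO, and ELOVL6 had 70.8 and 62.8 CPM in BCI against 67.4 and 58.2 CPM in DMSO, with overlap. Each call was lost without any 1 of the libraries of 4 h, and without the first BCI library of 48 h. That of DHCR7 was also lost without the second BCI library of 48 h. Over the 8 leave-one-out fits the difference ran from 0.65 to 0.87 for ELOVL6, 0.53 to 0.81 for DHCR7 and 0.50 to 0.73 for FASN.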

How the results depend on the processing

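Counts of members called depended on the setting in several comparisons, and the causes were not tested. The share of all genes called was not computed for the alternative settings, so these counts have no background beside them. BCI at 4 h against DMSO (14 members) gave 7 with a change of at least 1.5-fold required, 25 with only the groups compared, 25 without both second libraries of 48 h, and 3 in each leave-one-out fit. The difference of BCI effects (3) gave 8 with no low-count filter, 6 with DESeq2, 13 without both second libraries of 48 h, and 0 to 12 in leave-one-out fits (12 without the first DMSO library of 48 h). BI-D1870 (27) gave 9 and the pair of inhibitors (27) gave 7 with the 1.5-fold rule. The pair against BI-D1870 (2) gave 1 with DESeq2 size factors, 1 with the stricter filter, 4 with no filter, DESeq2, limma-voom or the replicate block, 0 with the 1.5-fold rule, and 0 to 1 in leave-one-out fits.

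FedP against parental (6) gave 11 with no filter, 14 with DESeq2, 2 with only the groups compared, 0 with the replicate block, 29 without the second parental and first RuxP libraries, and 0 to 26 in leave-one-out fits. RuxP against parental (3) gave 5 with DESeq2, 0 with the replicate block, 0 with only the groups compared, 26 without those 2 libraries, and 0 to 13 in leave-one-out fits. FedP against RuxP (0) gave 11 with no filter, 13 with DESeq2, 1 with limma-voom, 21 with only the groups compared and 25 without those 2 libraries. INSIG2 in RuxP against parental changed sign, to 0.50, without those 2 libraries. Both fits without 2 libraries were added after seeing the data, and their counts have no share of all genes beside them.

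The labels do not say that replicate numbers pair libraries, and deviations of same-numbered libraries correlated between -0.222 (parental with RuxP) and 0.316 (DMSO with BCI at 48 h). With the replicate block, 17 members were called for BCI at 4 h and 25 for time in DMSO. Only the groups compared could not be run for the difference of BCI effects. Of 4480 log2 fold changes of members under the alternatives, 4026 kept their side of the threshold, 192 lost a call, 261 gained one and 1 was called with the other sign. Values that were not called could change sign, such as FASN in RuxP against parental, from -0.95 up to 0.49 in leave-one-out fits. With 2 libraries a group, a change that was not called may have been too small to detect.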

Other observations

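Related genes outside the 32 were also compared between the pair of inhibitors and DMSO at 24 h. ABCA1 averaged 3.25 ± 0.525 CPM in the pair and 9.47 ± 0.4 CPM in DMSO (SD, n = 2 each), a log2 fold change of -1.54 (SE 0.15, edgeR adjusted p 4.5e-08). ACSL1 averaged 68.7 ± 1.54 CPM in the pair and 36.6 ± 0.455 CPM in DMSO, a log2 fold change of 0.91 (SE 0.05, edgeR adjusted p 1.6e-11). NPC2 rose with 0.98, and ACSL4 and FNTB fell with -0.82 and -0.75. Against BI-D1870 alone, the pair had higher STARD3 (0.21) and GRAMD1A (0.18), both sterol transfer proteins, and lower ACSL3 (-0.22) and ELOVL5 (-0.20).

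In persistent cells, ACSL1 rose in both lines. It averaged 21.8 ± 1.73 CPM in FedP, 18.7 ± 3.28 CPM in RuxP and 9.11 ± 0.357 CPM in parental cells (SD, n = 2 each), with log2 fold changes of 1.26 in FedP (edgeR adjusted p 0.019) and 1.04 in RuxP (edgeR adjusted p 0.032). ACSL4 rose in RuxP with 0.94 (edgeR adjusted p 0.042). Both lines were set against the same parental libraries. With BCI at 4 h, NPC1 rose with 0.45 and HSD17B12, a reductase of fatty acid elongation, with 0.40, and UBE2G2 fell with -0.36 and DHDDS, a subunit of the dolichol-making enzyme, with -0.34.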
